A study of Mus musculus with 12 samples.

Results

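Slc5a11 and Miox, the genes of inositol uptake and inositol breakdown, were followed across 12 two-colour arrays of mouse renal medulla. They are represented by 2 of 15600 cDNA clones, 1 clone per gene, each the mean of 2 adjacent spots. A clone was taken where its annotation gave Slc5a11 or Miox as its single gene symbol, as 9191 clones have. The pair was chosen from its difference between water-restricted and control mice in these same data, so that difference is given below as a description with no test. The arrays compared amplified RNA of 3 mice deprived of water with that of 3 control mice, in all 9 pairs of mice, and 3 of the pairs were hybridised in both dye orientations. The labels give no strain, sex, age, genotype or duration of the restriction for either group, and no treatment of the controls.

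Myo-inositol is a small, uncharged sugar alcohol that kidney cells gather as an organic osmolyte, a solute that balances the high salt and urea outside cells of the medulla without disturbing proteins. Slc5a11, also called SMIT2, carries inositol into cells together with sodium, and in kidney it is known from the apical membrane of proximal tubule cells. Miox, inositol oxygenase, opens the inositol ring to give glucuronate, the committed step of inositol breakdown, and is known as an enzyme of kidney proximal tubule. The straight part of the proximal tubule runs into the outer medulla, whereas the better-known osmolyte carrier Slc5a3 is found mainly in thick limb and collecting duct.

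The data show the following. Both genes had the same sign on 12 of 12 arrays, Slc5a11 with values close together and Miox with higher values on arrays of water-restricted mouse 3. What that sign means is unsettled, because the sources used here do not name the numerator dye. If it was Alexa Fluor 546, positive values stand for more RNA of the gene after water restriction, and if it was Alexa Fluor 647, for less. Arrays that carried the water-restricted sample in Alexa Fluor 647 were changed in sign, so every value below reads in 1 direction, and both genes lie on the same side under either reading. Nor do the sources say whether the ratios were already turned to 1 direction before deposit. If they were, the signs would be 6 positive and 6 negative for each gene, and the differences between groups given below would be 0.082 for Slc5a11 and 0.18 for Miox.

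The 150 bases before the RefSeq start of each gene are shown because both clones lie on the same side. They come from the RefSeq promoter table (build GRCm38.p6, plus strand), which held both genes. The region is chr7:123214716-123214865 for Slc5a11 and chr15:89334323-89334472 for Miox. The start used for Slc5a11 lies 272 bases inside the annotated gene span, and that for Miox at its first base. Capitals mark matches to 4 short letter patterns searched on both strands, picked after the sequences were seen.
Slc5a11: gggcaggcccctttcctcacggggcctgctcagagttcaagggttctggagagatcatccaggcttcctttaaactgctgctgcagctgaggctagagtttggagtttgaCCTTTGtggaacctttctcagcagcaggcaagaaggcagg
Miox: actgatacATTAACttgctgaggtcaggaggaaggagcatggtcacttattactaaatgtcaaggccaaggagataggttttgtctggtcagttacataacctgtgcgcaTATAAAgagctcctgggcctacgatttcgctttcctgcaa
The Slc5a11 window held CAAAGG, the core of sites for the hepatocyte nuclear factor HNF4, on the minus strand from 40 bases before the start. Of 27025 windows of this length 10.5% held that pattern. The Miox window held TATAAA, the TATA box, from 40 bases before the start on the plus strand (8.08% of windows), and GTTAAT, part of the site of HNF1, another hepatocyte nuclear factor, on the minus strand from 142 bases before it (3.76%). TGGAAA, the core of the tonicity element bound by Nfat5, was in neither window and in 10.9% of all windows. A match is a run of letters and not a measured site, and neither window shares a pattern with the other.

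Slc5a11, the carrier, had log2 ratios of 1.08 and 0.92 for water-restricted mouse 1 with control mouse 3, in the 546 and 647 orientation, of 0.95 with control mouse 2 and of 1.07 with control mouse 1. Water-restricted mouse 2 gave 0.58 and 0.65 with control mouse 1 in the 2 orientations, 0.92 with control mouse 2 and 0.71 with control mouse 3. Water-restricted mouse 3 gave 0.98 in both orientations with control mouse 2, 1.28 with control mouse 1 and 1.64 with control mouse 3. All 12 values were therefore positive, the lowest from water-restricted mouse 2 and the highest from mouse 3. In the 546 orientation they ran from 0.58 through a median of 1.03 to 1.64, and in the 647 orientation from 0.65 through 0.94 to 1.28, so the orientations overlapped.

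Miox, the oxygenase, had 1.32 and 0.71 for water-restricted mouse 1 with control mouse 3 in the 546 and 647 orientation, 0.97 with control mouse 2 and 0.83 with control mouse 1. Water-restricted mouse 2 gave 0.70 and 1.14 with control mouse 1, 1.51 with control mouse 2 and 0.80 with control mouse 3. Water-restricted mouse 3 gave 2.52 and 1.19 with control mouse 2, 2.32 with control mouse 1 and 2.61 with control mouse 3. The 3 highest of the 12 values thus belonged to water-restricted mouse 3, whose remaining array lay among those of the other mice. In the 546 orientation the values ran from 0.70 through a median of 1.42 to 2.61, and in the 647 orientation from 0.71 through 1.06 to 2.32.

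**Figure D1:**
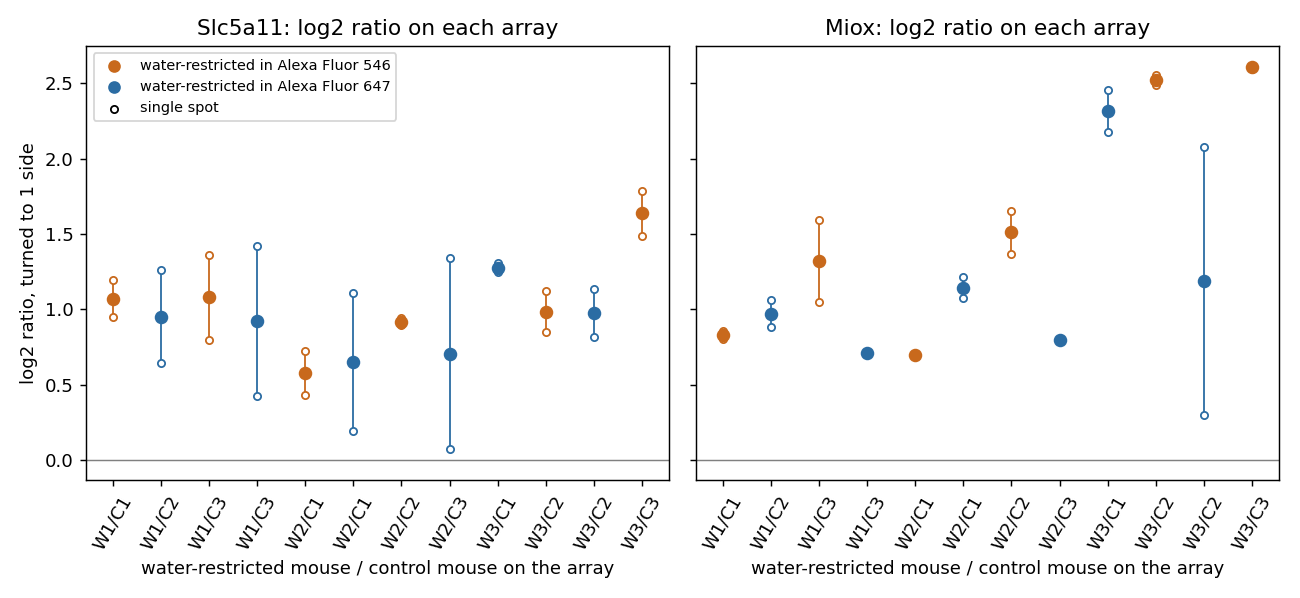
Log2 ratio of Slc5a11 (left) and Miox (right) on each of the 12 arrays, turned to 1 side; filled points are the mean of the 2 spots of a clone, open points single spots, W and C the water-restricted and control mouse, and colour the dye of the water-restricted mouse. All filled points lie above 0, and for Miox 3 of the 4 arrays of water-restricted mouse 3 lie between 2.32 and 2.61.

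The 2 genes differed in how well repeats met. Between the arrays of a swapped pair, Slc5a11 differed by 0.08 on average, and only 0.8% of clones differed by as little or less, while the median clone differed by 0.47. Miox differed by 0.80, and 84.1% of clones differed by as much or less. The order turned around for the 2 spots on an array, whose median difference was 0.31 for Slc5a11, the same as for the median clone (0.31), and 0.11 for Miox. The close means of Slc5a11 thus stood over spots that lay up to 1.27 apart, as where water-restricted mouse 2 met control mouse 3 and the spots read 0.07 and 1.34. The widest gap for Miox, 1.79, was on the array of water-restricted mouse 3 and control mouse 2 in the 647 orientation, where the spots read 2.08 and 0.30. By the first spot alone, the 4 arrays of water-restricted mouse 3 ran from 2.08 to 2.60 and the other 8 from 0.70 to 1.59, with no overlap. By the second spot alone they ran from 0.30 to 2.62 and from 0.70 to 1.65, and overlapped.

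Neither clone had a dye effect past the threshold. The dye term, the part of the deposited ratio that stays when the mice swap dyes, was 0.07 for Slc5a11 (SE 0.08, limma adjusted p = 0.685) and 0.20 for Miox (SE 0.13, adjusted p = 0.393). Without control mouse 3 the term of Slc5a11 was 0.0095, and that of Miox ran from 0.062 without control mouse 2 to 0.43 without control mouse 1, with no call. Of all clones 3.38% passed this test at an adjusted p of 0.05. On the ratios as deposited, both genes were positive on all 6 arrays of the 546 orientation and negative on all 6 of the other.

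A level for each mouse was fitted from all 12 arrays, relative to the mean of the 6 mice, with an SE that covers array error only. Slc5a11 was at 0.79 in water-restricted mouse 3, 0.50 in mouse 1 and 0.24 in mouse 2, and at -0.44, -0.48 and -0.61 in control mice 2, 1 and 3 (SE 0.13 each). Miox was at 1.55 in water-restricted mouse 3, 0.36 in mouse 2 and 0.23 in mouse 1, and at -0.64, -0.73 and -0.76 in control mice 1, 2 and 3 (SE 0.20 each). For both genes the lowest water-restricted level lay above the highest control level, by 0.68 for Slc5a11 and 0.87 for Miox. Of all clones 4.56% had such a gap on this side and 1.21% were positive on 12 of 12 arrays. At an unadjusted p under 0.05 in the fit between groups, 2.37% were on this side. These figures are only the background, since the pair was chosen for this contrast.

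As a description, the difference between group means was 1.02 for Slc5a11 (SE 0.19, n = 3 mice per group), a ratio of 2.02, and 1.43 for Miox (SE 0.33), a ratio of 2.69. By size the difference of Miox ranked 7 and that of Slc5a11 27 among 6786 genes. The SD over mice was 0.28 for Slc5a11 and 0.73 for Miox in the water-restricted group, and 0.09 and 0.06 in the control group. The control SDs lie below the SE of a single level from array error (0.13 and 0.20), so they do not measure how far control mice differ. Without water-restricted mouse 3 the difference of Miox was 1.01 and that of Slc5a11 0.88. In bulk tissue, a change in the number of cells of a type and a change in RNA per cell cannot be told apart.

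**Figure D2:**
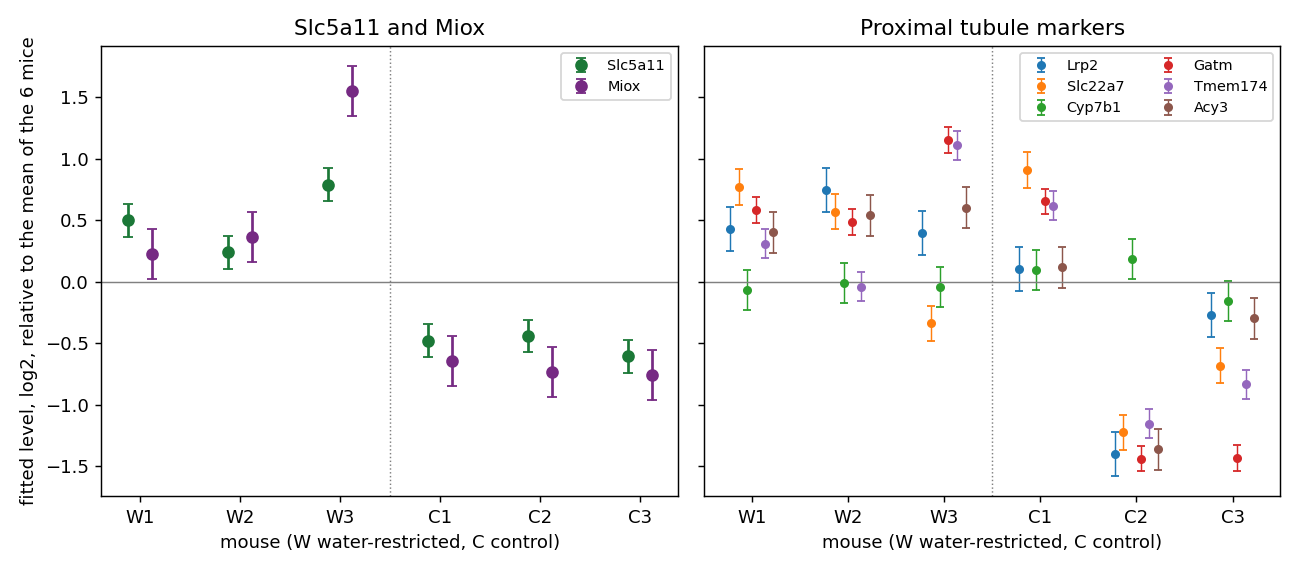
Fitted log2 level in each mouse, relative to the mean of the 6 mice, for Slc5a11 and Miox (left) and for 6 proximal tubule markers (right); points are levels, bars 1 SE between arrays, and W and C water-restricted and control mice. Slc5a11 and Miox lie between -0.44 and -0.76 in all control mice, while Gatm is at 0.65 in control mouse 1 and at -1.44 and -1.43 in the others. Among the markers, Lrp2 and Acy3 also lie lower in every control mouse than in any water-restricted mouse, and the other markers do not.

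Differences between mice of the same group were tested against the error between arrays. The pair was not chosen on them, although its choice favours genes with little spread within a group. Among control mice neither gene passed (limma F-test, adjusted p = 0.858 for Slc5a11 and 0.960 for Miox), against 0.256% of clones that did. Among water-restricted mice the adjusted p was 0.537 for Slc5a11 and 0.301 for Miox. There 0% of clones passed, while 10.4% had an unadjusted p under 0.05. Miox was among these (unadjusted p = 0.00591, limma, rank 305 by p). For Slc5a11 the unadjusted p was 0.0948.

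Taking mice one by one, Miox was 1.23 higher on this scale in water-restricted mouse 3 than in mouse 1 (SE 0.32, limma adjusted p = 0.266) and 1.12 higher than in mouse 2 (SE 0.32, adjusted p = 0.486), and neither passed. Mice 1 and 2 differed by -0.11 (SE 0.32). Slc5a11 had its highest level in the same mouse, 0.52 above mouse 2 (SE 0.21, adjusted p = 0.545) and 0.26 above mouse 1 (SE 0.21). No neighbours in the order of levels within a group thus passed the adjusted test. On single arrays Miox exceeded Slc5a11 in 10 of 12. The excess ran from -0.24 to 0.24 on arrays of water-restricted mouse 1, from 0.09 to 0.59 for mouse 2, and from 0.21 to 1.54 for mouse 3. Being a difference of ratios, it says nothing of which transcript is more abundant.

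Other genes of inositol supply lay on the same side with smaller values. Of 11 listed genes for inositol supply and breakdown, 5 had a clone, and the 3 besides Slc5a11 and Miox were positive. Impa1, the phosphatase that frees inositol from its monophosphate, had 0.55 (SE 0.18, limma adjusted p = 0.771). It was positive on 10 of 12 arrays, from -0.20 through a median of 0.61 to 1.26. Its levels were 0.43, 0.05 and 0.34 after water restriction and -0.06, -0.49 and -0.27 in the controls, so the groups did not overlap, although 0.05 and -0.06 lie closer together than the SE of a level (0.15). Of all clones 4.56% had a gap on this side. Bpnt1, a phosphatase of nucleotides that also takes inositol bisphosphate, had 0.34 (SE 0.21), but its 2 clones gave -0.12 and 0.80. Minpp1, which strips inositol polyphosphates, had 0.17 (SE 0.17) and 7 of 12 arrays positive. The median of the list without Slc5a11 and Miox was 0.34, against 0.00 over all genes, of which 50.7% were positive. By limma 0% of the 6786 genes passed over all genes. At an unadjusted p under 0.05 there were 337, or 4.97%, with 3.21% on the positive side, Impa1 among them. Slc5a3, Slc2a13, the proton-coupled inositol carrier, and Isyna1, the synthase that makes inositol from glucose phosphate, were not analysed here. Slc5a11 was also the sole clone of 13 listed Slc5 carriers.

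Genes listed around glucuronate, the product of Miox, were mostly on the same side. The list reaches beyond glucuronate, to enzymes of UDP-glucose, glucosamine phosphate and the pentose phosphate pathway. Of its 18 symbols 11 had a clone, 8 of them positive (72.7%, against 50.7% of all genes). The median of the 11 was 0.34, against 0.00 over all genes. Akr1a1, which reduces glucuronate to gulonate, had 0.56 (SE 0.21), and its 3 clones gave 0.47, 0.65 and 0.56. Its level was 0.71 in water-restricted mouse 3 and 0.01 and 0.12 in mice 1 and 2, against -0.23, -0.38 and -0.23 in the controls. Cryl1, the gulonate dehydrogenase, had 0.49 (SE 0.46), with 11 of 12 arrays positive and 1 at -2.79. Dcxr, the xylulose reductase of a later step, had 0.47 (SE 0.25). Gulo, which turns gulonolactone towards vitamin C, had -0.05 (SE 0.14).

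In the same list, Ugp2 and Ugdh, which make UDP-glucose and UDP-glucuronate, had 0.51 (SE 0.19) and 0.27 (SE 0.36). Gnpda1, a deaminase of glucosamine phosphate, had 0.55 (SE 0.20). Enzymes of the pentose phosphate pathway, into which xylulose feeds, ran from -0.11 to 0.34. Taldo1 had 0.34 (SE 0.27), Rpe 0.28 (SE 0.16), Tkt -0.01 (SE 0.17) and Rpia -0.11 (SE 0.25). At an unadjusted p under 0.05 there were 3 genes of the list, Akr1a1, Ugp2 and Gnpda1, all positive, against 3.21% of all genes on that side. Over all genes 0 of the 11 passed by limma.

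Genes listed around inositol lipids and inositol signals lay, by their median, near the middle of all genes. The list holds enzymes that build these, and also phosphatases, phospholipases, a transfer protein and a receptor. Of 78 listed genes 35 had a clone, 22 of them positive (62.9%, against 50.7% of all genes) and 13 negative. The median of the 35 was 0.04, against 0.00 over all genes. Cdipt, the synthase that joins inositol to a lipid backbone, had 0.00 (SE 0.14), and the lipid kinases Pi4k2a and Pi4k2b had 0.08 (SE 0.21) and 0.11 (SE 0.21). Pi4ka and Pi4kb were not analysed here. At an unadjusted p under 0.05 by limma, 3.21% of all genes were on the positive side. There the list held Pip4k2c, a phosphoinositide kinase, at 0.51 (SE 0.16), and Mtmr4, a phosphoinositide phosphatase, at 0.57 (SE 0.23). On the other side it held Itpr2, an inositol trisphosphate receptor of the endoplasmic reticulum, at -0.77 (SE 0.23), where 1.75% of all genes had such a p on that side. These 3 are named for their p and fall outside the naming rule, and 0 of the 35 passed over all genes by limma.

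**Figure D3:**
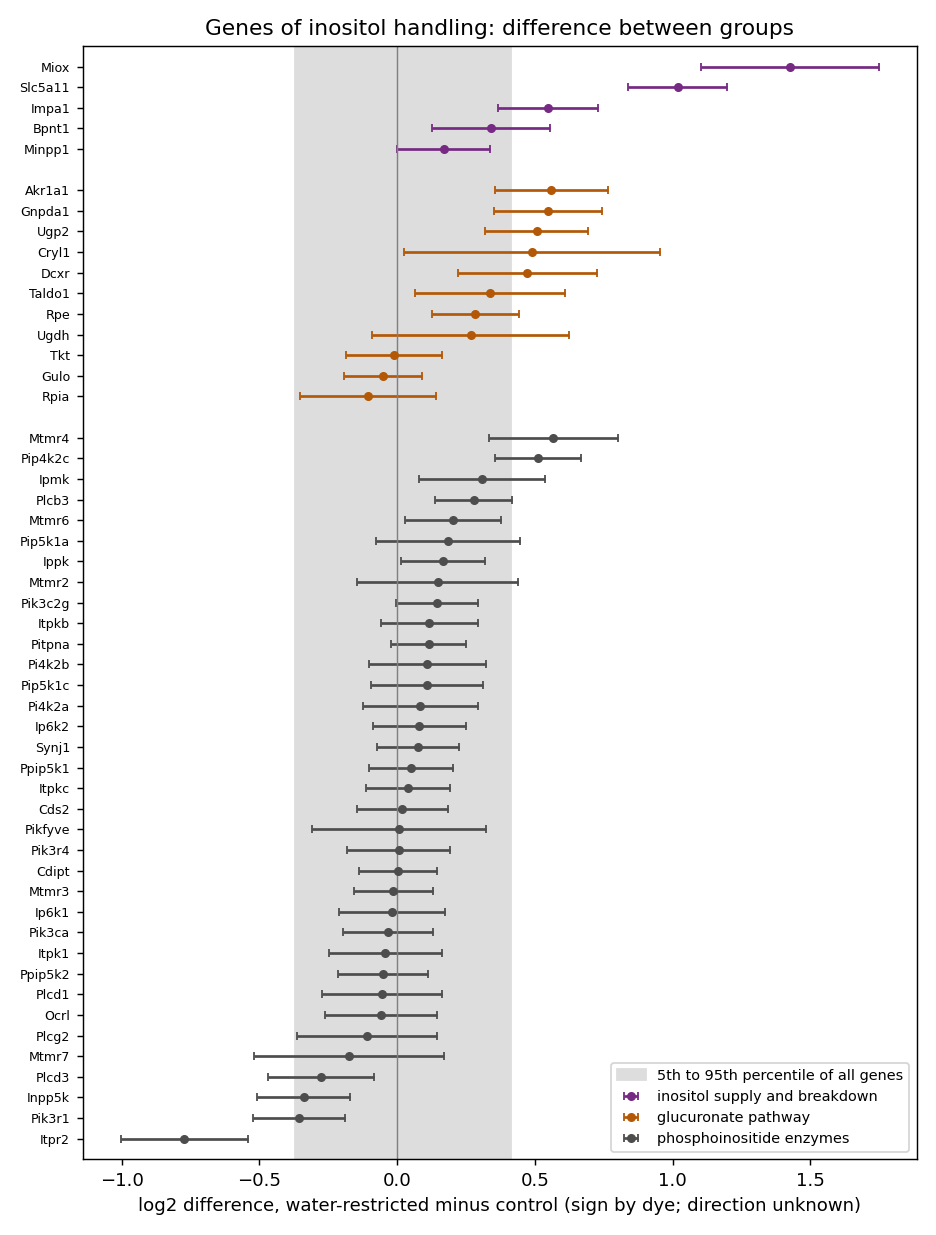
Log2 difference between water-restricted and control mice for every measured gene of the 3 inositol lists; points are differences, bars 1 SE (n = 3 mice per group), and the grey band runs from the 5th to the 95th percentile of all 6786 genes (-0.37 to 0.41). Miox at 1.43 and Slc5a11 at 1.02 lie farthest from the band, and most genes of the phosphoinositide list lie inside it.

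The tissue label could be checked against few markers. Of 33 listed proximal tubule genes 6 had a clone, and of 16 principal cell genes 5 did. All of these 5 were negative, with a median of -0.59. Over all genes 50.7% were positive and the median was 0.00. None of the 10 thick ascending limb genes or 6 thin limb genes was analysed here. Of the 6 intercalated cell genes, Slc4a1, the anion exchanger, had a clone, at -0.74 (SE 0.24), and is named as the sole one. Array ratios carry no absolute level, so presence or absence of these cells could not be read from them. Array medians lay between -0.04 and 0.06. The array SD was 0.515 to 0.764 on 11 arrays and 1.21 on the remaining one, of water-restricted mouse 2 with control mouse 2, without which Slc5a11 had 0.97 and Miox 1.35.

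Since Slc5a11 and Miox are known from proximal tubule, the markers of that segment were set beside them. Of the 6, 5 were positive: Gatm, which makes a creatine precursor, at 1.48 (SE 0.52), the endocytic receptor Lrp2 at 1.05 (SE 0.35), the aminoacylase Acy3 at 1.03 (SE 0.34), the membrane protein Tmem174 at 0.92 (SE 0.47) and the organic anion carrier Slc22a7 at 0.67 (SE 0.52). Cyp7b1, a steroid hydroxylase, had -0.08 (SE 0.15). Lrp2 and Acy3 were positive on 12 of 12 arrays, as 1.46% of genes were, and their levels did not overlap between groups. Of single clones 4.56% had such a gap on this side. That share was not counted over genes, and Lrp2 is the mean of 2 clones. The mean level of the 6 markers was 0.40, 0.38 and 0.48 in water-restricted mice 1, 2 and 3 against 0.42, -1.07 and -0.61 in the control mice of those numbers. For the principal cell genes it ran from -0.33 to -0.28 in the water-restricted and from 0.11 to 0.51 in the control mice. The part of differing tubule content in the values of Slc5a11 and Miox was not tested.

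The levels in control mouse 1 are given for the markers and the pair side by side, in a contrast chosen after the data were seen. Of the 6 markers, 4 (Gatm, Slc22a7, Tmem174 and Cyp7b1) stood in control mouse 1 within or above the range of the water-restricted mice. The remaining markers, Lrp2 (0.10) and Acy3 (0.12), stood below that range, as did Slc5a11 and Miox. The pair was chosen for a difference that favours genes low in every control mouse, so its values here are a description and do not set it apart from the markers. Against the mean of control mice 2 and 3, control mouse 1 differed by 0.03 for Slc5a11 (95% interval -0.35 to 0.41) and by 0.08 for Miox (-0.53 to 0.69). It differed by 2.10 for Gatm (1.78 to 2.41, limma adjusted p = 0.000278), by 1.87 for Slc22a7 (1.43 to 2.32, adjusted p = 0.00476) and by 1.57 for Tmem174 (1.21 to 1.93, adjusted p = 0.00476). Lrp2 at 0.98 (0.43 to 1.53), Acy3 at 0.95 (0.43 to 1.46) and Cyp7b1 at 0.14 (-0.36 to 0.64) did not pass. Of all genes 0.354% passed this contrast, whose error is that between arrays of these mice, and no test of marker against member was made.

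In water-restricted mouse 3 the markers did not stand together. The contrast of this mouse with its group was also taken after the data were seen. It is the mouse where Slc5a11 and Miox had their highest levels, so their intervals here are a description. Against the mean of water-restricted mice 1 and 2, Miox differed by 1.17 (95% interval 0.56 to 1.78) and Slc5a11 by 0.39 (0.02 to 0.77). Tmem174 differed by 0.98 (0.61 to 1.34), Gatm by 0.61 (0.29 to 0.93) and Slc22a7 by -0.96 (-1.40 to -0.51). Lrp2 at -0.25 (-0.80 to 0.31), Acy3 at 0.05 (-0.46 to 0.57) and Cyp7b1 at 0.02 (-0.48 to 0.52) had intervals that include 0. By limma 0% of genes passed this contrast (adjusted p = 0.363 for Miox and 0.498 for Slc5a11).

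**Figure D4:**
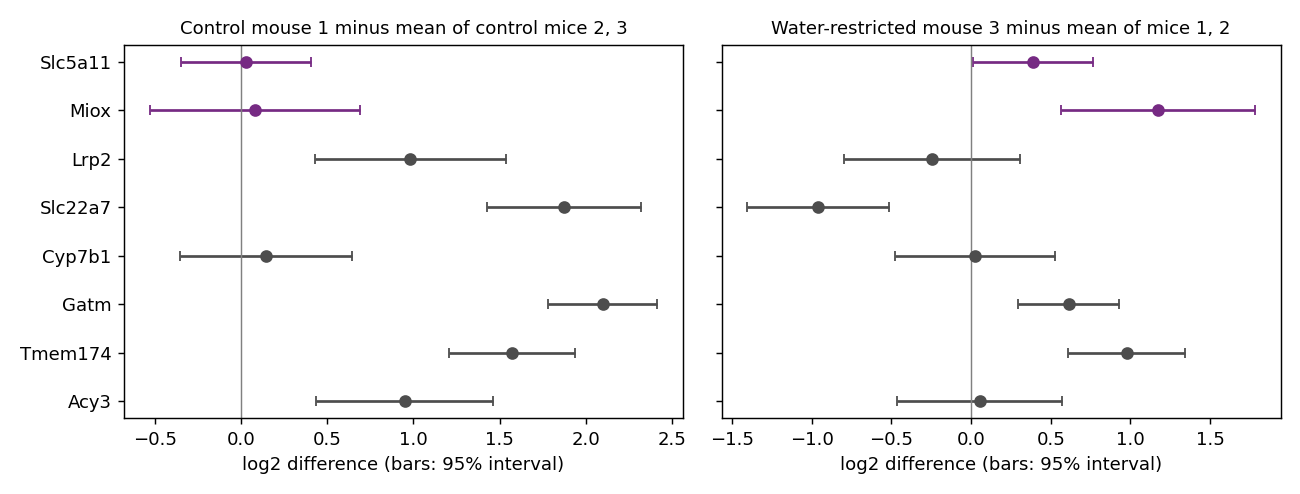
Difference of 1 mouse from the mean of the other 2 of its group, in log2, for Slc5a11, Miox and 6 proximal tubule markers; the left panel is control mouse 1, the right panel water-restricted mouse 3, and bars are 95% intervals from the error between arrays. In the left panel the bars of Slc5a11 (0.03), Miox (0.08) and Cyp7b1 (0.14) include 0, and Gatm lies at 2.10. In the right panel Miox lies at 1.17 and Slc22a7 at -0.96. The contrasts of both panels were chosen after the data were seen.

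Likeness of pattern was measured as Pearson r over the 12 arrays, after the dye term was removed, as a description. This measure leaves out the mean of a gene over the turned arrays, and so its group difference, and the arrays share mice. Slc5a11 and Miox had r = 0.69 with each other. Among 6785 other genes, Miox ranked 25 in likeness to Slc5a11, and Slc5a11 ranked 63 in likeness to Miox. Over the levels of the 6 mice, which hold the group difference, r was 0.95.

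The 8 genes most like Slc5a11, with r from 0.76 to 0.83, were Acp5, an acid phosphatase, the zinc carrier Slc30a2, Itm2b, a membrane protein, the lipid-binding protein Unc119b, the histone gene H3f3b, the actin-binding drebrin gene Dbn1, Nudt7, a peroxisomal coenzyme A hydrolase, and Rab3d, a small GTPase. Most opposed, with r from -0.91 to -0.82, were Cntrob, a centriole protein, Rrm2, a subunit of ribonucleotide reductase, the co-chaperone Bag3 and the cytochrome Cyb5b. For Miox the 8 were Itprip, Elp4, a subunit of elongator, Itm2b, the sialyltransferase St3gal1, Unc119b, Pcnx4, Bhlhb9 and Atp6v0b, a subunit of the proton pump, with r from 0.80 to 0.86. Prdm10, Adamtsl1, Tmem14c and Rtn4, a reticulon, were most opposed, with r from -0.92 to -0.83. Itm2b and Unc119b were on both lists, with group differences of -0.06 (SE 0.16) and 0.25 (SE 0.17). These lists were not stable when 1 array was left out. Without the array of water-restricted mouse 2 and control mouse 2, 5 of the 8 genes remained for Slc5a11 and 3 for Miox. Over the levels of the 6 mice 0 did, but that r holds the group difference and so measures something else.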

How the data were processed

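The authors' deposited values are log2 ratios between the dyes, 1 for each of 31200 spots on each of 12 arrays, the base being inferred from the values. How background was corrected, how arrays were normalized and which dye is the numerator are points not given in the sources used here. Spot brightness was not analysed here. Differences between groups rest on 3 mice each, and repeated arrays add technical precision alone. Adjacent spots of a clone were averaged. Gene symbols were taken from the array platform's annotation (9191 of 15600 clones with 1 gene, 254 with several, 6155 with none), with symbols updated through Entrez identifiers for 9085 clones. Averaging clones with the same symbol left 6786 genes.

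Arrays carrying the water-restricted sample in Alexa Fluor 647 were changed in sign. Least squares with a dye term gave a level per mouse, arrays of a swapped pair weighing 0.5 each. The levels of 3 mice against 3 were compared with limma 3.58.1 in R 4.3.3 (lmFit, eBayes, Benjamini-Hochberg, threshold 0.05) over all clones or genes. Differences within a group, and the dye term, were examined by limma on the 12 arrays with equal weights, where the error is technical. The fits were also run on simulated data with independent errors between arrays and no spread between mice. Those data therefore cannot show how the comparison of 3 mice with 3 behaves under such spread.

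Members and lists were chosen with earlier results of these data known. Named genes are both members, all measured genes of the inositol supply, glucuronate, Slc5 and proximal tubule lists, 6 phosphoinositide genes where measured, and the 8 most and 4 least alike genes of each member. Slc4a1, Hsd3b1, Pip4k2c, Mtmr4 and Itpr2 were named outside this rule, after their values were seen.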

Additional observations from a re-analysis of the deposited data

Results flagged for a closer look

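Within each dye orientation, the extreme array was compared with the others for Slc5a11, Miox, Impa1, Bpnt1 and Minpp1, in 10 groups of 6 arrays. Miox on the array of water-restricted mouse 3 and control mouse 1, in the 647 orientation, stood far from the other 5. Its value was 2.32 and the nearest was 1.19, a gap of 0.70 of the whole range, past Dixon's critical value for 6 arrays. Chance flags about 1 in 20 groups. The nearest array was that of water-restricted mouse 3 and control mouse 2, whose spots read 2.08 and 0.30.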

How the results depend on the processing

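The differences between groups of Slc5a11 and Miox kept their sign under 21 alternatives each, and 20 of these moved them by less than the SD between mice. The exception was to read the ratios as already turned, which gave 0.082 for Slc5a11 and 0.18 for Miox. Leaving out each mouse gave 0.88 to 1.15 for Slc5a11 and 1.01 to 1.67 for Miox. With the mouse number as a replicate block the differences were again 1.02 (SE 0.21) and 1.43 (SE 0.31), and calls over all clones were 0 with and without the block by limma (432 and 584 at an unadjusted p under 0.05). Deviations of mice with the same number correlated at -0.01, -0.48 and -0.15. With 3 mice per group, these values cannot settle whether the numbers pair the mice. Tests between mice of the same group and of the dye term kept their side of the threshold under every alternative run, including swapped arrays weighing 0.5, added after seeing the data. On arrays of the 647 orientation alone, 1 gene passed, Hsd3b1 (2.20, limma adjusted p = 0.0308), against 0 on all arrays. Over 4 alternatives, 4 to 5 genes of the inositol supply list, 7 to 9 of the glucuronate list and 19 to 22 of the phosphoinositide list were positive. Of the 8 genes most like Slc5a11 and Miox, 5 and 3 were shared without the array of water-restricted mouse 2 and control mouse 2. The cause was not tested. Over the levels of the 6 mice, which hold the group difference and so give another measure, 0 were shared.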
